A study of Petromyzon marinus with 10 samples.

Results

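The HES and HEY genes encode basic helix-loop-helix transcription factors that mostly repress their targets. They are the best known effectors of the Notch pathway. When a Notch receptor is bound by its ligand on a neighbouring cell, the enzyme gamma-secretase cuts it inside the membrane, and the released intracellular domain enters the nucleus and switches on HES and HEY genes. In the vertebrate central nervous system these factors are known for holding neural progenitors and radial glia undifferentiated. The study turned to this pathway because of its RNA-Seq results, those from these libraries included, as a possible brake on axon regeneration. It then treated other injured larvae with a gamma-secretase inhibitor, and reports less HESB by qPCR and more regenerated neurons.

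Of the 57134 loci assembled from the lamprey brainstem, 3 were taken by their locus number. MSTRG.35975 is called HESB in the study's list for baclofen, MSTRG.35974 is called HESB in its list for GABA and is termed here the second HESB locus, and MSTRG.3032 is called HEY1. HESB and HEY1 were on the baclofen list because their adjusted p was under 0.05 in DESeq2 on these same libraries. Their differences between the groups are therefore given below as a description. Adjusted p-values printed for them further on show only how the call moved with the processing, and are no independent evidence. The second HESB locus came from the GABA experiment, whose libraries were not analysed here, and its test below does not reuse the values that chose it.

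The libraries hold poly(A) RNA from whole brainstems of sea lamprey larvae (Petromyzon marinus) aged 5 to 7 years. All larvae came from the river Ulla, and the spinal cord of each had been cut completely. The 5 baclofen libraries came from larvae kept with baclofen, an agonist of the metabotropic GABAB receptor, in their water, and the 5 control libraries from injured larvae without the drug. The text of the series dates the libraries 29 days after injury. The study's methods give that day for the GABA experiment alone, and date the baclofen larvae and their controls earlier. In its supplement the names of the 5 baclofen libraries carry the earlier day too. Each library pools the brainstems of several animals, so the SDs below are between pools.

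Total counts ranged from 14123604 to 19566056 in the baclofen libraries and from 12774386 to 18130619 in the controls (two-sided exact permutation test, p = 0.532). Of 23794 tested loci, those with an adjusted p-value, DESeq2 called 82 at an adjusted p under 0.05 (64 higher and 18 lower). It called 426 without control replicate 1, whose loci deviated most from their group means, and 49 without baclofen replicate 5. Loci that the study's lists name after neuronal, glial and leukocyte genes all had counts in all libraries. Whole brainstem holds all of these cells, and fewer cells of a type and less RNA per cell cannot be told apart.

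The 2 HESB loci lay head to head. HESB is found on scaffold PIZI01000088.1 of Pmar_germline 1.0 at 629868 to 631223 on the plus strand, and the second HESB locus at 613945 to 627803 on the minus strand, with 2064 bp between their starts. HESB had 3 exon blocks of 184, 96 and 830 bp, in the direction of transcription, separated by gaps of 113 and 133 bp. The first 3 blocks of the second HESB locus, read from its own start, were of much the same kind. They measured 198, 96 and 1090 bp, with gaps of 120 and 127 bp. After a gap of 4694 bp followed a set of 193, 96 and 1059 bp, and after another gap of 4819 bp the locus ended with blocks of 96 and 369 bp.

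The layout of HESB is thus repeated within its neighbour. A block of exactly 96 bp that follows another block and precedes one of at least 500 bp, with gaps of at most 500 bp, was found in 20 of the 21421 loci with at least 3 blocks (0.0934%), HESB among them. The second HESB locus was the only 1 of the 20 that held it more than once. This layout was defined after the exons had been seen. Counts of the second HESB locus are sums over all 8 of its blocks, and whether it joins several genes into 1 assembled locus was not tested. HEY1 (scaffold PIZI01000003.1, 24296214 to 24305258, minus strand) did not have this layout. It had 4 blocks of 452, 93, 2007 and 2190 bp, and the third of them also contains an alternative exon record of 96 bp. An exon record of this length was present in all 3 loci and in 6.35% of the tested loci with more than 1 exon record. The length was taken from these same loci. HESB holds 3 exon records, the second HESB locus 20 and HEY1 17, and more records give more chances of a match. Nothing is read from this share.

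**Figure D1:**
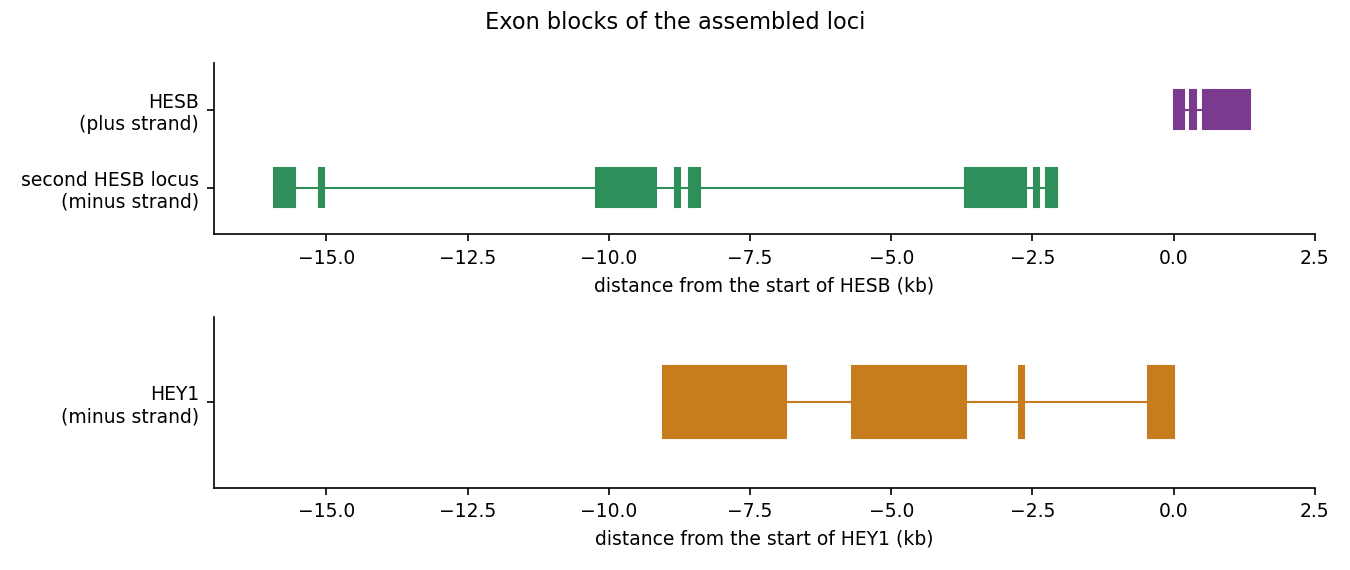
Exon blocks of HESB and the second HESB locus, by distance from the start of HESB, and of HEY1, by distance from its own start (x axes in kb; boxes are merged exon records, lines the gaps between them). The second HESB locus starts 2064 bp from HESB on the other strand and repeats its order of a short, a 96 bp and a long block.

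HESB had fewer counts in the baclofen libraries. Normalised counts, that is, counts divided by the size factor of the library, were 261, 251, 277, 229 and 278 in baclofen replicates 1 to 5, against 319, 389, 334, 373 and 341 in control replicates 1 to 5. Every baclofen library lay below every control, with replicate 5 as the highest of the baclofen libraries and replicate 1 as the lowest control. The means were 259 ± 20.4 and 351 ± 29.0 (SD, n = 5 each), a difference of −26.2% and a log2 fold change of −0.44 ± 0.09 (SE). Taken 1 baclofen and 1 control library at a time, the log2 ratio ran from −0.77 to −0.20. Raw counts of HESB overlapped, with 232 to 338 fragments in the baclofen libraries and 258 to 378 in the controls. Its mean normalised count over all libraries was 305, where the median of tested loci was 142. The groups also separated in CPM, counts scaled by the library totals alone, at 14.5 to 17.3 with baclofen and 20.2 to 23.2 in controls.

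HEY1, the HES-related factor with a YRPW motif, moved the other way. Its normalised counts were 836, 806, 885, 808 and 843 in baclofen replicates 1 to 5, against 676, 653, 621, 534 and 656 in control replicates 1 to 5. All baclofen libraries exceeded all controls, and control replicate 4 was the lowest library. The means were 836 ± 32.1 and 628 ± 56.1 (SD, n = 5 each), a difference of 33.0% and a log2 fold change of 0.41 ± 0.07 (SE). Single log2 ratios ran from 0.25 to 0.73. In CPM, HEY1 reached 51.2 to 53.8 with baclofen and 32.5 to 44.0 in controls.

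The second HESB locus was spread widely in each group. Normalised counts were 1043, 1106, 1464, 1249 and 1537 in baclofen replicates 1 to 5, against 1444, 1852, 1239, 1627 and 1324 in control replicates 1 to 5. The groups overlapped, baclofen replicates 3 and 5 being higher than 3 of the 5 controls. A control exceeded a baclofen library in 18 of the 25 possible pairs. The means were 1279.8 ± 216 and 1497 ± 246 (SD, n = 5 each), with a log2 fold change of −0.23 ± 0.12 (SE), a 95% interval of −0.47 to 0.02 and an adjusted p of 0.911 over all tested loci (DESeq2 Wald test; unadjusted p = 0.0663). No difference was detected, but the interval includes the fold change of HESB.

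**Figure D2:**
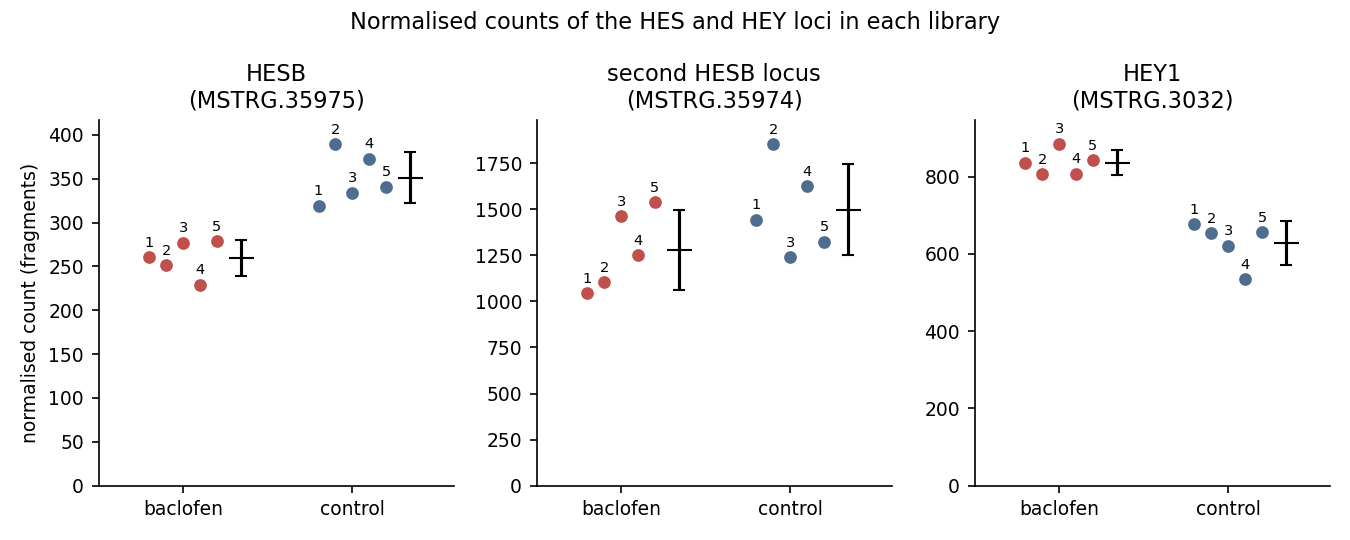
Normalised counts (y axes, from 0) of HESB, the second HESB locus and HEY1 in each baclofen and control library, numbered by replicate, with the mean and SD of each group as a black bar (n = 5 each). The groups are apart in HESB and HEY1 and overlap in the second HESB locus, where the mean is 1279.8 with baclofen and 1497 in controls.

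DESeq2 thus called 2 of the 3 loci, where it called 0.345% of the tested loci (0.269% higher and 0.0756% lower). The groups did not overlap in the same 2, as in 1.25% of tested loci (0.765% higher and 0.483% lower). edgeR called 1 of the 3, HEY1, where it called 0.0918% of the 27244 loci it tested. Nothing is read from these counts, since the calls chose HESB and HEY1. Among all 23794 tested loci, 470 had a lower log2 fold change than HESB and 670 a higher one than HEY1. The median over tested loci was −0.01 and the median size 0.09.

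The spread between replicates differed between the loci. The SD of HESB was 1.29 times the SD of fragment counting with baclofen and 1.52 times in controls. For HEY1 these ratios were 1.13 and 2.20. For the second HESB locus they were 6.20 and 6.27, so that its replicates scattered far beyond counting error. Its dispersion in DESeq2, the variance beyond counting relative to the squared mean, was estimated at 0.0174, where loci of its mean count follow a trend of 0.00656. HESB (0.00706, trend 0.0112) and HEY1 (0.00505, trend 0.00773) had estimates below that trend. A small spread favours a call, and HESB and HEY1 were chosen by their calls on these libraries while the second HESB locus was not, so nothing is read from this contrast.

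Levels were compared between the loci per kb of exon. The second HESB locus was the highest, with 400.3 ± 67.7 normalised counts per kb with baclofen and 468 ± 76.9 in controls. HESB followed with 234 ± 18.4 and 316 ± 26.2, and HEY1 was the lowest with 176 ± 6.76 and 132 ± 11.8 (SD, n = 5 each). No library of a locus overlapped with those of the next in this order, in either group. The distance between HESB and HEY1 was smaller with baclofen, since HESB was lower and HEY1 higher there.

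The ratio of HEY1 to HESB does not depend on how libraries are scaled. In counts, it was 3.21, 3.21, 3.19, 3.53 and 3.03 in baclofen replicates 1 to 5, against 2.12, 1.68, 1.86, 1.43 and 1.93 in control replicates 1 to 5. The baclofen libraries lay close together and above all controls. Both genes had been chosen for their differences, so this too is a description. The mean ratios were 3.23 ± 0.182 and 1.80 ± 0.260 (SD, n = 5 each). The ratio of the second HESB locus to HESB overlapped between the groups, at 4.93 ± 0.688 in baclofen libraries and 4.25 ± 0.438 in controls (SD, n = 5 each).

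**Figure D3:**
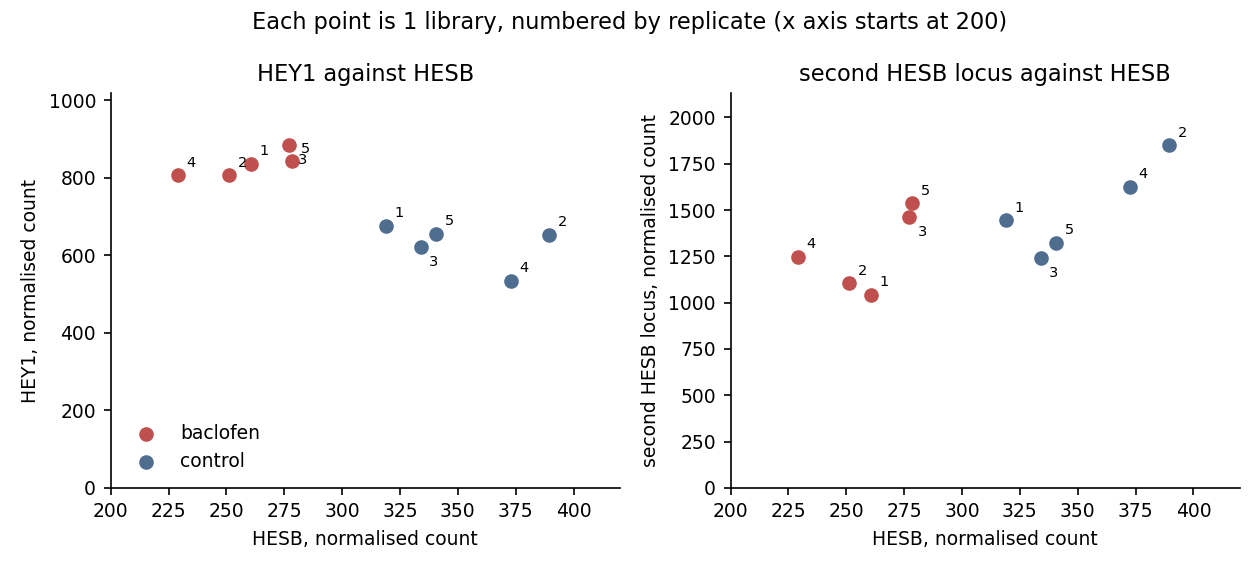
HEY1 (left) and the second HESB locus (right) against HESB, in normalised counts, 1 point a library, numbered by replicate and coloured by group (the x axis starts at 200). Baclofen libraries hold 806 to 885 counts of HEY1 at 229 to 278 of HESB, apart from the controls with 534 to 676 and 319 to 389.

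To see whether the loci vary together within groups, the log2 normalised count of each library was set relative to its group mean. HESB and the second HESB locus had a Pearson's r of 0.668 over the 10 libraries (permutation p = 0.0399, adjusted p = 0.120 over the 3 pairs of loci). Spearman's rho was 0.624 (permutation p = 0.0606, adjusted p = 0.182). The relation was short of the threshold once adjusted. Without the 2 libraries farthest from the median of HESB, baclofen replicate 4 and control replicate 2, r was 0.712 over 8 libraries. Without control replicate 2 alone it was 0.542 (permutation test over all orders, adjusted p = 0.403). Without baclofen replicate 4 alone it was 0.807 (permutation test over all orders, adjusted p = 0.0419). That was the only 1 of the 10 fits without a single library with an adjusted p under 0.05. HESB and HEY1 had an r of −0.0805 (permutation p = 0.840, adjusted p = 0.924) and a rho of 0.164 (permutation p = 0.657, adjusted p = 0.657). Without the same 2 libraries r was −0.386. HEY1 and the second HESB locus had an r of 0.0403 (permutation p = 0.924, adjusted p = 0.924) and a rho of 0.236 (permutation p = 0.512, adjusted p = 0.657), and r was −0.156 without baclofen replicate 5 and control replicate 2. No relation of HEY1 to either HESB locus within groups was thus detected, and its sign changed with the libraries kept.

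The same deviations were compared with those of 71 other loci that the study's lists name and that had a mean normalised count of at least 50. Most like HESB were the toll-like receptor TLR2 (r = 0.781) and the serine/threonine kinases PIM3 (r = 0.781) and PIM1 (r = 0.780). Most like the second HESB locus were the Krüppel-like factor KLF10 (r = 0.888), the epithelial membrane protein EMP2 (r = 0.888) and AP2S1, the sigma subunit of the AP-2 clathrin adaptor (r = 0.872). Most like HEY1 were the dehydrogenase DHDH (r = 0.806), the GABAA receptor subunit GABRA5 (r = 0.664) and the chloride channel CLCN2 (r = 0.603). These are the highest of 71 values over 10 libraries, each pair shares its libraries and size factors, and no test was made. Log2 fold changes were 0.50, 0.63 and 0.58 for TLR2, PIM3 and PIM1, 0.45, 0.02 and −0.23 for KLF10, EMP2 and AP2S1, and 0.44, −0.13 and 0.26 for DHDH, GABRA5 and CLCN2. Nothing is read from their directions, since TLR2, PIM3, PIM1, KLF10, DHDH and CLCN2 were called on these libraries, where most called loci were higher.

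Assembled loci within 100 kb were examined next, since the choice of the 3 loci did not use them. Around the 2 HESB loci there were 15, of which 7 were tested. All 7 had negative log2 fold changes, from −0.16 to −0.01, with a median of −0.08, where 12312 of the 23794 tested loci were negative. DESeq2 and edgeR called 0 of them, where they called 0.345% and 0.0918% of all tested loci. Each gave 2 an unadjusted p under 0.05, a level that 5.8% of all tested loci reached in DESeq2 and 6.42% in edgeR. The nearest tested locus beyond the second HESB locus, 8989 bp away, averaged 1043 ± 95.1 with baclofen and 1162 ± 80.7 in controls, in normalised counts (log2 fold change −0.16 ± 0.08, SE; DESeq2 adjusted p = 0.834). In a locus 34460 bp away the groups did not overlap, with 1487 ± 61.0 counts with baclofen and 1627 ± 43.4 in controls (−0.13 ± 0.05, SE, DESeq2 adjusted p = 0.588). It is given because it was the only 1 of the 7 without overlap, as were 1.25% of all tested loci (0.483% lower with baclofen). On the side of HESB, the nearest tested locus, at 10262 bp, had 541 ± 36.8 counts with baclofen and 547 ± 57.9 in controls (−0.01 ± 0.09, SE; DESeq2 adjusted p = 0.998).

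Around HEY1 there were 13 loci, of which 9 were tested. Of these 6 had negative and 3 positive log2 fold changes, between −0.21 and 0.10. DESeq2 called 0 of the 9 and edgeR 0 of the 10 it tested, where they called 0.345% and 0.0918% of all tested loci. Each gave 1 an unadjusted p under 0.05, as it did 5.8% (DESeq2) and 6.42% (edgeR) of all tested loci. The closest of them lies on the same strand and ends 73 bp before the start of HEY1. Its normalised counts averaged 205 ± 19.6 with baclofen and 196 ± 19.7 in controls (log2 fold change 0.07 ± 0.11, SE; DESeq2 adjusted p = 0.998). No difference was detected there. An abundant locus 9986 bp beyond the other end averaged 27005 ± 1654 with baclofen and 30212 ± 2799.7 in controls (−0.16 ± 0.07, SE; DESeq2 adjusted p = 0.748). It was called only without control replicate 1 (−0.21 ± 0.05, SE; DESeq2 adjusted p = 0.00728). None of the 3 loci overlapped another assembled locus on either strand.

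**Figure D4:**
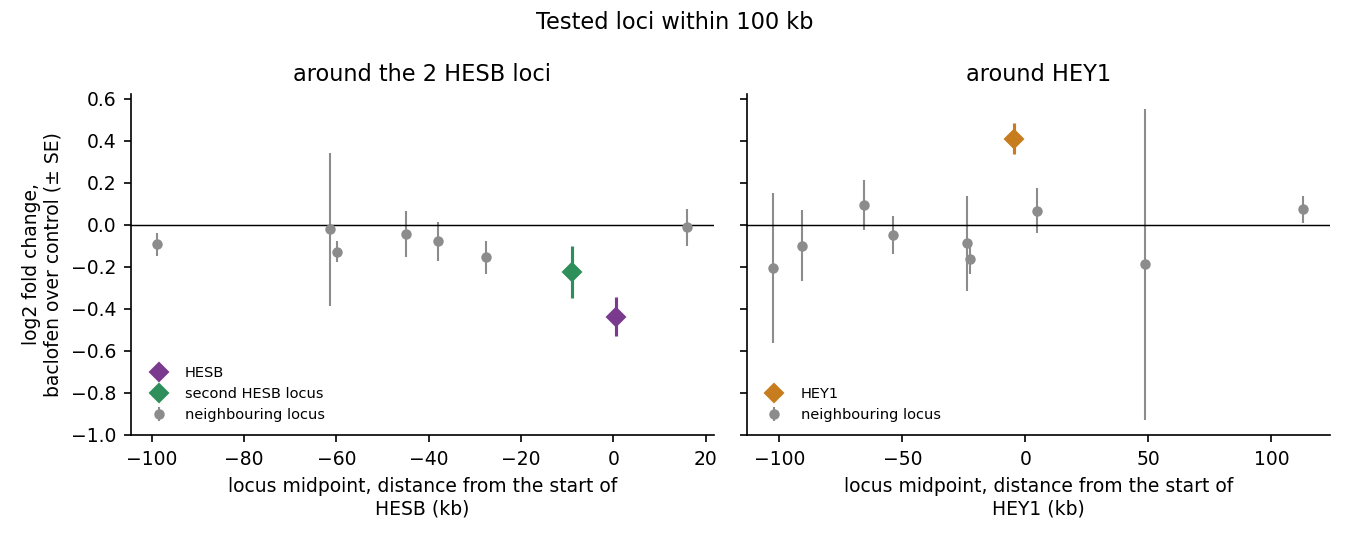
Log2 fold changes, baclofen over control, with SE (y axis) of the tested loci within 100 kb of the HESB loci (left) and of HEY1 (right), by the distance of the locus midpoint from the start of HESB or HEY1 (x axes in kb). HESB lies at −0.44 and HEY1 at 0.41, and the neighbours lie between −0.21 and 0.10, some of them with a wide SE.

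Other loci with the exon layout of HESB were also measured. Of the 20, 18 lay elsewhere in the assembly, and all were tested. Of these 18, 9 were lower and 9 higher with baclofen, from −0.18 to 0.26 on the log2 scale with a median of 0.01. DESeq2 and edgeR called 0 of them, where they called 0.345% and 0.0918% of all the loci they tested. Each gave 1 an unadjusted p under 0.05, a level that 5.8% of all tested loci reached in DESeq2 and 6.42% in edgeR. At these shares so few loci would mostly hold no call, and nothing is read from the 0. They carry no gene name, so it is not known here which of them encode HES factors.

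Notch ligands, Notch receptors and the subunits of gamma-secretase are not among the loci that the study's lists name, and were not analysed here. Those lists name 10 transcription regulators that DESeq2 called with baclofen, HESB and HEY1 included, where it called 0.345% of tested loci. edgeR did not call HESB (adjusted p = 0.0719), SoxE1 (0.0735), the ETS homologous factor (0.224) or HLF (0.264), and called the others. HESB was the only 1 of the 10 that was lower. The other 9 were higher, among them the nuclear receptor of the circadian clock NR1D1 (1859 ± 254 against 553 ± 186 normalised counts in controls; log2 fold change 1.75 ± 0.23, SE), the Krüppel-like factor KLF7 (582 ± 24.9 against 412 ± 42.6; 0.51 ± 0.08, SE) and the Sox factor SoxE1 (737 ± 76.9 against 529 ± 67.3; 0.48 ± 0.10, SE). All 10 were put on their list because they were called in these libraries, and the count of directions is no independent evidence.

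Markers of cell types were few, since only named loci could be used. The 4 glial loci (VIM, SLC4A4, SoxE1 and SCRG1) summed to between 15728 and 17942 normalised counts in baclofen libraries and between 15212 and 18317 in controls. These ranges overlapped, and 1 of the 4, SoxE1, was called. The 5 neuronal loci (CPLX1, MAP6, GABRA5, CARTPT and STON2) summed to between 19329 and 21642 with baclofen and between 18671 and 20546 in controls, with CPLX1 and MAP6 called higher. CPLX1 made up most of that sum, averaging 15353 ± 581 in baclofen libraries against 13694 ± 412 in control libraries (SD, n = 5 each). The other 3 had log2 fold changes of −0.13 (GABRA5), −0.09 (CARTPT) and −0.03 (STON2) and were not called. The 4 leukocyte loci summed to between 914 and 1141 with baclofen and between 999 and 1247 in controls. DESeq2 called all 4, PTPRC and TLR2 as higher and CD62L and VLRA as lower, where it called 0.345% of tested loci. These 4, like CPLX1, MAP6 and SoxE1, were on the list chosen on these libraries, so nothing is read from the number called. edgeR called none of these loci, with adjusted p-values from 0.0735 (SoxE1) to 0.512 (CPLX1). The part of cell composition in the values of HESB and HEY1 was not tested.

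The fold changes of HESB and HEY1 moved little with the processing of the counts, and that of the second HESB locus moved more. A small spread favours a call, and calls chose HESB and HEY1 only, so nothing is read from this contrast. HESB stayed between −0.47 and −0.39 and HEY1 between 0.36 and 0.44 over the 10 fits that each left out 1 library and 10 other alternatives. The call of HESB did not hold in every fit. It was kept in every fit that left out a library, with adjusted p-values up to 0.0400, but not by edgeR (adjusted p = 0.0719). HESB and HEY1 were chosen by their calls on these libraries, which all the fits reuse, so a kept call is no independent evidence. With a t distribution DESeq2 called 0 loci in all, so that neither HESB nor HEY1 was called. The second HESB locus ranged from −0.30 to −0.14 and was called in none of these fits. Its smallest value in size came without control replicate 2, its highest library.

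**Figure D5:**
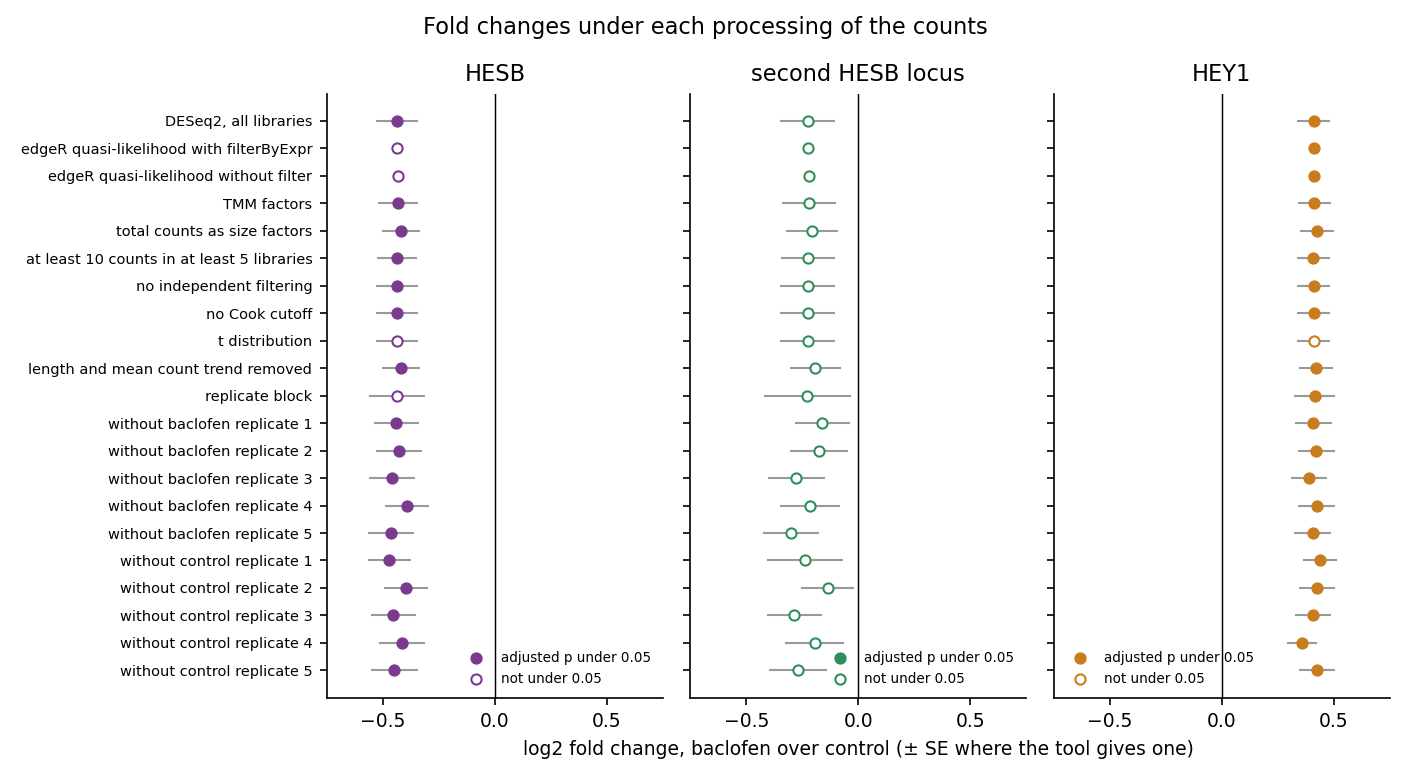
Log2 fold changes, baclofen over control, of HESB, the second HESB locus and HEY1 (x axes; bars are SE where the tool gives one) under each processing of the counts (rows). Filled points have an adjusted p under 0.05. All values of HESB lie between −0.47 and −0.39 and all of HEY1 between 0.36 and 0.44, and the second HESB locus has no filled point.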

How the data were processed

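The deposited values are raw fragment counts per assembled locus for 57134 loci, which the authors made from stranded poly(A) libraries with Fastp, STAR in 2-pass mode on Pmar_germline 1.0, StringTie and featureCounts (fragments with both ends mapped, by strand). The versions of these tools are not given in the sources used here. No option that would count fragments aligned to several places is named, so closely similar copies of a gene can lose counts. In the study's supplement the share of reads aligned to several places differs between libraries. It is highest in a baclofen library, while the remaining baclofen libraries mostly lie below the controls. The part of this in the counts here was not tested. In 2 loci the exon list was broken over a pair of lines and was rejoined. Gene names come from the study's lists alone.

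Groups and replicate numbers come from the titles of the libraries. Loci were compared with DESeq2 version 1.42.0 (treatment only, median-of-ratios size factors, Wald test, Benjamini-Hochberg over 23794 loci, threshold 0.05) and, as an alternative, with edgeR version 4.0.16 (quasi-likelihood) in R version 4.3.3. Log2 fold changes set baclofen over control, without shrinkage. Replicates are pools of animals, and p-values measure only the spread between these pools. Single values were compared with two-sided exact permutation tests. Correlations of log2(normalised count + 1) were tested with 100000 resamples, or over all orders where a library was left out. These permutations ignored the group, and values centred by group cannot be exchanged freely, so the p-values of correlations are approximate. Totals set the precision, HESB being counted with 232 to 378 fragments a library.

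Named were the 3 loci, loci within 100 kb of them, the 3 named loci most like each in r, 10 transcription regulators and 13 marker loci. These members and lists were chosen with earlier results of these data known. The alternatives were edgeR with and without its count filter, TMM factors, total counts, a minimum of 10 counts in 5 or more libraries, DESeq2 without independent filtering, without Cook's cutoff or with a t distribution, removal of the trend of log2 values on exon length and mean count together, the replicate number as a block, and each library left out. No sequence was printed, since no genome of this build was used here.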

Additional observations from a re-analysis of the deposited data

Results flagged for a closer look

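Of 34 sets of 5 values, 2 contained an outlying library, and 1.7 would be found by chance. Outlying means that more than 0.71 of the range of the set lay between that library and its nearest neighbour. Neither set belonged to HESB, HEY1 or the second HESB locus. The first was KLF10 in controls, the locus most like the second HESB locus within groups. Its normalised count was 1241 in replicate 2 and between 1045 and 1102 in the remaining controls. The same library also held the highest count of the second HESB locus, 1852. The other was NR0B2, a nuclear receptor without a DNA-binding domain, in controls, with 308 in replicate 5 and between 206 and 235 elsewhere.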

How the results depend on the processing

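No alternative turned the sign of the fold change of the 3 loci. HESB fell short of the threshold in edgeR with its count filter (log2 fold change −0.44, adjusted p = 0.0719) and without it (−0.43, adjusted p = 0.0681), and with a t distribution in DESeq2 (−0.44, adjusted p = 0.9995). HEY1 fell short with the t distribution (0.41, adjusted p = 0.9995) and in no other fit. Both loci were chosen by their calls on these libraries, so calls kept in these fits are no independent evidence. No shared deviation of samples with the same replicate number was detected (correlations of −0.103 to 0.0076). These values cannot show whether the libraries were paired in handling. With the replicate number as a block HESB had −0.44 (adjusted p = 0.208), HEY1 kept its call (0.41, adjusted p = 0.00492), and 45 loci were called in place of 82 (37 higher, 8 lower). The number of loci called was 25 in edgeR with the filter (23 higher, 2 lower), 30 without it (28 higher, 2 lower) and 0 with the t distribution (0 higher, 0 lower), which adjusted over 51732 loci and gave 853 of them an unadjusted p under 0.05. It was 63 without independent filtering (11 lower) and 109 with the joint trend removed (30 lower). Fits without 1 library gave 49 to 426 (38 to 124 higher, 9 to 302 lower), the highest without control replicate 1 and the lowest total without baclofen replicate 5, and −0.47 to −0.39 for HESB, 0.36 to 0.44 for HEY1, −0.30 to −0.14 for the second HESB locus and 0 to 1 called neighbours. The causes were not tested.

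Without group centring, HESB and HEY1 had an r of −0.838 and both HESB loci 0.680. These values contain the group difference that chose HESB and HEY1, so a test of them decides nothing and no p-value is given. For the second HESB locus and HEY1 r was −0.0628 with total counts and −0.416 without centring, opposite in sign to the 0.0403 given above. Leaving out 1 library gave r from 0.542 to 0.807 for both HESB loci, from −0.242 to 0.404 for HESB and HEY1 (0.140 without control replicate 1) and from −0.103 to 0.504 for the second HESB locus and HEY1 (−0.0239 and −0.0800 without baclofen replicates 2 and 3).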

Other observations

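Head-to-head loci as close as the HESB pair were common in this assembly. There were 832 pairs of tested loci on opposite strands whose starts faced each other over at most 2064 bp. In 2 of these pairs at least 1 locus was called by DESeq2, and in 0 were both. The HESB pair itself was among them, and HESB was chosen by that call. Of all tested loci, 0.345% were called, which is a share of single loci, while each pair holds 2. The group-centred values of such pairs had a median r of 0.214 over the 10 libraries, and 87.7% of the pairs had a lower r than the 0.668 of the HESB pair. All values share libraries and size factors, and no test was made.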
